A study of Mus musculus with 24 samples.

Results

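The 10 airway genes followed here, 4 of club cells and 6 of ciliated cells, were measured in the lungs of newborn mice kept on a selenium-deficient (SeD) or selenium-sufficient (SeS) diet and reared in hyperoxia (O2) or room air (RA). The club cell genes were Scgb1a1, Scgb3a1, Scgb3a2 and Cyp2f2, and the ciliated cell genes were Foxj1, Dnah5, Dynlrb2, Tppp3, Ccdc39 and Rsph1. They were chosen by symbol, as 10 of the 57010 genes in the count table. Whole lung RNA of C3H/HeN pups was sequenced in 24 libraries, in 8 groups of 3. The groups were SeD O2, SeD RA, SeS O2 and SeS RA, each at postnatal day 3 (PN3, after 72 h of exposure) and at postnatal day 1 (PN1, after 24 h). SeD chow held under 0.01 ppm sodium selenite and SeS chow 0.4 ppm, O2 pups breathed an FiO2 of 0.85 and RA pups 0.21, and the parents of every pup had been fed the same diet since weaning. All groups shared the strain, the start of exposure within 12 h of birth, and dams that were rotated between the gases. Each library is a mouse, by the deposited column names, but the labels do not say whether the 3 mice of a group came from separate litters, so p-values measure the spread between these libraries.

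Club cells are the secretory cells of the bronchioles. They release secretoglobins, small proteins of the airway lining fluid, carry cytochrome P450 enzymes that act on inhaled chemicals, and can renew both themselves and ciliated cells after injury. Ciliated cells bear the motile cilia that move mucus out of the airway. The axoneme, the core of a motile cilium, holds dynein arms that drive the beat, radial spokes that regulate it and a ruler that spaces the parts. The transcription factors Foxj1 and Rfx switch on the genes for these parts. In mouse lungs both cell types are present at birth and are confined to the conducting airway, and in whole lung RNA their transcripts stand beside those of the far larger alveolar compartment.

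Library totals ran from 26 to 50.4 M counts, with a median of 32.6 M. Of all genes, 23831 had enough counts to be tested, and all 10 airway genes were among them. Levels are given in CPM, counts relative to the library's total, after TMM scaling. Some libraries stood apart. Alb, a liver transcript, was at 36100 CPM of the library total in SeD O2 PN3 replicate 1, and in SeD O2 PN1 it was at 3840, 2600 and 126 CPM, against at most 942 CPM elsewhere. Keratin and other genes of squamous epithelium summed to 528 CPM in SeD O2 PN1 replicate 3 and to no more than 4.35 CPM in each of the others. SeS O2 PN1 replicate 2 is titled hyperoxia but recorded at an FiO2 of 0.21, and the title decided its group. The deposited list of mice by group also places it in O2. SeD O2 PN3 replicate 1 held the lowest level of all 24 libraries for 6 of the 10 genes and the lowest of its group for 9, so results that rest on it are also given without it. Alveolar type 2 genes, which include the surfactant proteins, summed to between 9860 and 25200 CPM in every library.

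Scgb1a1 (ENSMUSG00000024653, chr19:9061000-9065326, minus strand, GRCm39), the club cell secretoglobin and classic marker of these cells, was the most abundant of the 10 genes. Compared per kilobase of exon, its mean over 24 libraries was 4920 CPM per kb, ahead of Scgb3a2 (ENSMUSG00000038791, chr18:43897354-43900474, plus strand), another secreted secretoglobin, at 725 CPM per kb. Cyp2f2 (ENSMUSG00000052974, chr7:26819322-26833090, plus strand), the P450 that makes mouse club cells sensitive to naphthalene, averaged 171 CPM per kb. Scgb3a1 (ENSMUSG00000064057, chr11:49549630-49555945, plus strand), a secretoglobin of the larger airways, averaged only 1.63 CPM per kb and varied most, with a 51.8-fold range between libraries, at 0.185 to 9.57 CPM and 6 to 336 raw counts.

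**Figure D1:**
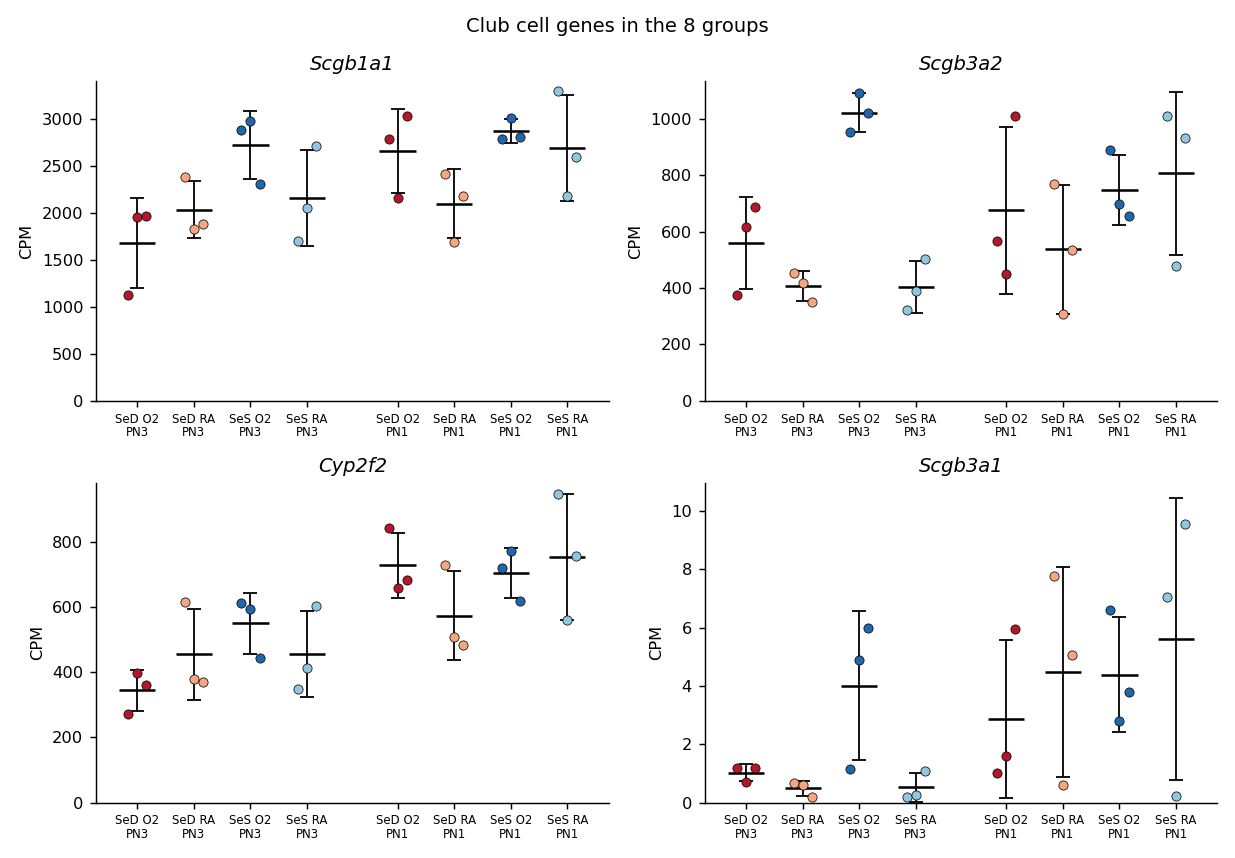
CPM of the 4 club cell genes (y axis, from 0) in the 8 groups (x axis), with 1 point per library, a bar for the mean and error bars for the SD of 3 libraries. Scgb3a2 was at 953 to 1090 CPM in SeS O2 PN3 and at 321 to 503 CPM in SeS RA PN3.

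Among the ciliated cell genes the order per kilobase was Tppp3 (59.4 CPM per kb), Rsph1 (13.4), Foxj1 (9.95), Dynlrb2 (7.21), Ccdc39 (1.21) and Dnah5 (1.16). Tppp3 (ENSMUSG00000014846, chr8:106193662-106198158, minus strand) encodes a tubulin polymerization-promoting protein that is not limited to ciliated cells. Rsph1 (ENSMUSG00000024033, chr17:31473993-31496378, minus strand) encodes a radial spoke head protein, and Foxj1 (ENSMUSG00000034227, chr11:116221530-116226225, minus strand) the forkhead factor that commits a cell to motile cilia. Dynlrb2 (ENSMUSG00000034467, chr8:117231593-117242662, plus strand) encodes a dynein light chain of the roadblock type. Ccdc39 (ENSMUSG00000027676, chr3:33864905-33898478, minus strand) encodes a part of the axonemal ruler, and Dnah5 (ENSMUSG00000022262, chr15:28203898-28472198, plus strand) an outer dynein arm heavy chain. All 10 are protein-coding genes. The highest library exceeded the lowest by 2.77-fold for Tppp3 and up to 4.26-fold for Dynlrb2, and the 3 club genes other than Scgb3a1 lay within that span.

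**Figure D2:**
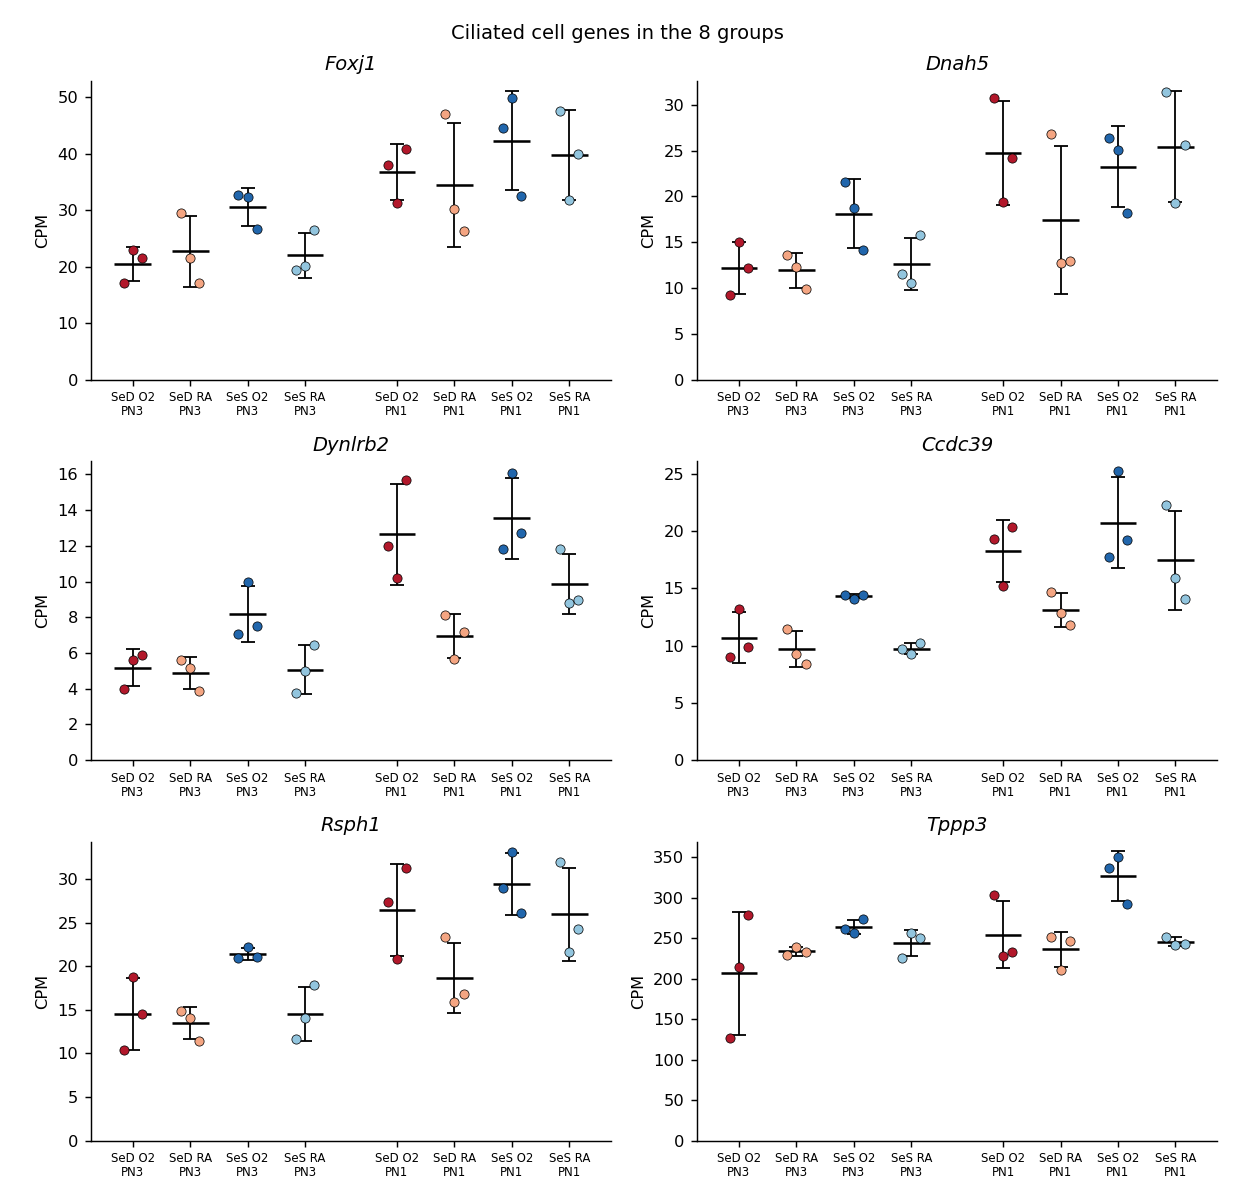
CPM of the 6 ciliated cell genes (y axis, from 0) in the 8 groups (x axis), with 1 point per library, a bar for the mean and error bars for the SD of 3 libraries. For Dynlrb2 the SeS O2 PN1 group held the highest mean, 13.5 CPM, and the SeD RA PN3 group the lowest, 4.86 CPM. The former includes replicate 2, with conflicting oxygen labels, at 16.1 CPM.

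The SeS O2 PN1 group had the highest mean for Scgb1a1, Foxj1, Dynlrb2, Tppp3, Ccdc39 and Rsph1, and the SeS RA PN1 group for Scgb3a1, Cyp2f2 and Dnah5. Scgb3a2 was the exception, with its highest mean in SeS O2 PN3. The lowest mean was in SeD O2 PN3 for Scgb1a1, Cyp2f2, Foxj1 and Tppp3, in SeD RA PN3 for Scgb3a1, Dnah5, Dynlrb2, Ccdc39 and Rsph1, and in SeS RA PN3 for Scgb3a2. With the 8 groups ordered by mean, neighbouring groups overlapped for every gene except Tppp3, whose SeS O2 PN1 libraries all lay above those of SeS O2 PN3. The top and bottom groups did not overlap for 9 of the genes, Scgb3a1 being the exception. These groups were picked for each gene by the same means, which favours a lack of overlap, and the share over all genes is not given.

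Sequence just upstream of the start of transcription is shown for 3 of the genes, because motifs of factors known to act in these cells occur in it. RefSeq promoters (GRCm38.p6) were at hand for Ccdc39, Cyp2f2, Dynlrb2, Scgb3a1 and Dnah5, 5 of the 10 genes, and the runs below were placed on GRCm39 by exact match. Capitals mark a motif. For Dynlrb2 (chr8:117231695-117231724, plus strand) they mark a pair of facing RFX motifs, for Dnah5 (chr15:28203662-28203897, plus strand) a single RFX motif, and for Cyp2f2 (chr7:26819130-26819321, plus strand) a site of the NKX2 type read on the other strand.
Dynlrb2: cctgcctgGTTGCCTAGCAACgggggaagc
Dnah5: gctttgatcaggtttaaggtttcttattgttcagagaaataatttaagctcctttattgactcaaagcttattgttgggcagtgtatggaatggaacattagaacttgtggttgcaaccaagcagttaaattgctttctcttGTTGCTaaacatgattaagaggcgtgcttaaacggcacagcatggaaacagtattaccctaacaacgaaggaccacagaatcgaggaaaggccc
Cyp2f2: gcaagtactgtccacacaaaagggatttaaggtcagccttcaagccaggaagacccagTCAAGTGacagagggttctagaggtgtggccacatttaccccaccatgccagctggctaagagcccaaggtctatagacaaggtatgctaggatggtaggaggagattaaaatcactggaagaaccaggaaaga
The 250 bases before each RefSeq start were searched on both strands in 32851 promoters. The paired form, GTTGC and after 3 bases of any kind GCAAC, was present in 0.207% of promoters and in that of Dynlrb2, at bases -51 to -39 from the RefSeq start and inside an exon of longer annotated transcripts. The single motifs, which the pair overlaps, were GTTGCC, in 10.4% of promoters, and GTTGCT, in 12.2%. GTTGCC was found at -51 to -46 of Dynlrb2, and GTTGCT at -44 to -39 and -150 to -145 of Dynlrb2, both on the other strand, and at -108 to -103 of Dnah5. The NKX2 letters CACTTGA, in 2.68% of promoters, lay at -192 to -186 of Cyp2f2 and at -174 to -168 of Scgb3a1. The forkhead letters TGTTTAC, in 3.17% of promoters, were found in none of the 5 windows, and Ccdc39 held none of these motifs. The motifs were chosen after the promoters were seen, and a match describes the letters only.

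Hyperoxia was first compared with room air in SeS pups at PN3, where Scgb3a2, Dynlrb2, Ccdc39 and Rsph1 rose. To be called, a gene needed a log2 fold change beyond 0.25 in either direction and p below 0.05 after adjustment over 23831 genes (edgeR's quasi-likelihood test, Benjamini-Hochberg), and 27.6% of all genes were called in this comparison, 16.1% as higher. Of the 10 airway genes 4 were called, all as higher in O2. All 10 log2 fold changes were positive, with a median of 0.54, against 0.042 over all genes.

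Scgb3a2 was at 953, 1090 and 1020 CPM in SeS O2 lungs, against 321, 391 and 503 CPM in SeS RA lungs. The lowest O2 library was thus well above the highest RA library. The difference was 2.52-fold, a log2 fold change of 1.33 (SE 0.336, 95% interval 0.63 to 2.04, edgeR adjusted p = 0.00861). It was called without any one of the 6 libraries as well (log2 fold change 1.18 to 1.51, edgeR adjusted p 0.0176 to 0.0446). Scgb1a1, the more abundant secretoglobin, was at 2880, 2970 and 2300 CPM in SeS O2 lungs, against 1700, 2050 and 2710 CPM in SeS RA lungs. These overlapped, and the log2 fold change of 0.34 (95% interval -0.11 to 0.78) did not pass (edgeR adjusted p = 0.255). Cyp2f2 was also within the spread, at a log2 fold change of 0.27 (95% interval -0.22 to 0.77). Scgb3a1 was at 1.14, 4.89 and 6.0 CPM in SeS O2 lungs, against 0.200, 0.267 and 1.09 CPM in SeS RA lungs. These did not overlap, but 1 library of each group lay close to the other group, and the log2 fold change of 2.91 had a 95% interval of 0.51 to 5.31 (edgeR adjusted p = 0.0655). In whole lung RNA, more cells of a type and more RNA per cell cannot be told apart.

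Among the ciliated genes, Dynlrb2 was at 7.05, 9.95 and 7.52 CPM in SeS O2 lungs at PN3, against 3.77, 4.98 and 6.47 CPM in SeS RA lungs. Ccdc39, of the axonemal ruler, was at 14.4, 14.1 and 14.4 CPM in SeS O2 lungs, against 9.71, 9.30 and 10.2 CPM in SeS RA lungs. Rsph1, of the radial spoke, was at 20.9, 22.2 and 21.1 CPM in SeS O2 lungs, against 11.7, 14 and 17.8 CPM in SeS RA lungs. In all 3 genes every O2 library was above every RA library, and the O2 libraries of Ccdc39 and Rsph1 were close together. The log2 fold changes were 0.69 for Dynlrb2 (SE 0.224, edgeR adjusted p = 0.0275), 0.56 for Ccdc39 (SE 0.177, edgeR adjusted p = 0.0249) and 0.56 for Rsph1 (SE 0.206, edgeR adjusted p = 0.0480). Foxj1 (0.47, 95% interval 0.01 to 0.94), Dnah5 (0.52, 95% interval -0.06 to 1.11) and Tppp3 (0.11, 95% interval -0.25 to 0.48) did not pass. Over the 10 genes, 7 had all O2 libraries above all RA libraries, which held for 28.4% of all genes.

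These 3 ciliated calls were near the threshold. Dynlrb2 was lost without SeS O2 replicate 2, SeS RA replicate 1 or SeS RA replicate 2 (edgeR adjusted p up to 0.146), Ccdc39 without any one of the 6 libraries (edgeR adjusted p 0.0510 to 0.0729), and Rsph1 without any one except SeS RA replicate 3 (edgeR adjusted p up to 0.204), while the log2 fold changes stayed between 0.41 and 0.89. Among other transcripts that moved with the gas, olfactory and vomeronasal receptor genes summed to 238 to 444 CPM of the library total in SeS O2 lungs, against 26.2 to 44.8 CPM in SeS RA lungs, and cartilage genes summed to 28.5 to 41.1 CPM, against 16.6 to 19.8 CPM, with their part in these results not tested.

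In SeD pups at PN3, no airway gene was called between O2 and RA by edgeR, DESeq2 or limma's voom, and none had an unadjusted p under 0.05, while 35.9% of all genes were called. Of the log2 fold changes 6 were positive and 4 negative, with a median of 0.06, against 0.050 over all genes. Scgb3a2 was at 376, 616 and 687 CPM in SeD O2 lungs, against 455, 419 and 349 CPM in SeD RA lungs. Replicates 2 and 3 of SeD O2 were above all RA libraries and replicate 1 was not, and the log2 fold change of 0.46 had a 95% interval of -0.24 to 1.15 (edgeR adjusted p = 0.309). Cyp2f2 was at 273, 398 and 361 CPM in SeD O2 lungs, against 616, 379 and 371 CPM in SeD RA lungs. These overlapped, with a log2 fold change of -0.40 (95% interval -0.90 to 0.09). The ciliated genes lay between -0.18 for Tppp3 and 0.14 for Ccdc39. Without SeD O2 replicate 1, the library with the most Alb, again no airway gene was called, 7 log2 fold changes were positive, their median was 0.24 and that of Scgb3a2 was 0.70 (edgeR adjusted p = 0.168). Without it Tppp3 turned to 0.10, and Dynlrb2 and Ccdc39 were at 0.27 each and Rsph1 at 0.33. Without SeD O2 replicate 3, Tppp3 was called as lower in O2 (log2 fold change -0.42, edgeR adjusted p = 0.0413). The groups also differed in Ddx3y, a Y-linked gene, at 0 CPM of the library total in all 3 SeD O2 lungs, against 0, 139 and 133 CPM in SeD RA lungs, and in liver genes, which summed to 56.5 to 79600 CPM, against 6.18 to 368 CPM, and their part in these results was not tested.

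At PN1 Dynlrb2, in SeD pups, was the one airway gene called between the gases. Of all genes 2.5% were called there, 1.4% as higher and 1.1% as lower in O2. Dynlrb2 was at 12, 10.2 and 15.7 CPM in SeD O2 lungs, against 8.10, 5.66 and 7.16 CPM in SeD RA lungs. Every O2 library was above every RA library, and the difference was 1.81-fold, a log2 fold change of 0.86 (SE 0.223, edgeR adjusted p = 0.0435). Ccdc39 was at 19.3, 15.2 and 20.3 CPM in SeD O2 lungs, against 14.7, 12.8 and 11.8 CPM in SeD RA lungs, also with no overlap (13.1% of all genes had every O2 library on top), but its log2 fold change of 0.48 did not pass (edgeR adjusted p = 0.129). Of the 10 log2 fold changes 9 were positive, Scgb3a1 (-0.63, 95% interval -2.76 to 1.51) being the exception. The Dynlrb2 call was lost without SeD O2 replicate 1, SeD O2 replicate 3, SeD RA replicate 2 or SeD RA replicate 3 (edgeR adjusted p up to 0.214). The receptor genes summed to 134 to 233 CPM of the library total in SeD O2 lungs, against 321, 843 and 29 CPM in SeD RA lungs, and the SeD O2 group held the libraries with the Alb and squamous transcripts given above, and the part of these in the result was not tested.

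In SeS pups at PN1 no airway gene was called by edgeR, against 0.0587% of all genes (0.0462% as higher in O2), with 2 at an unadjusted p under 0.05, 2 called by limma's voom and none by DESeq2. Limma's voom called 3313 genes in all in this comparison. Tppp3 was at 337, 351 and 292 CPM in SeS O2 lungs, against 252, 242 and 243 CPM in SeS RA lungs. Dynlrb2 was at 11.8, 16.1 and 12.7 CPM in SeS O2 lungs, against 11.8, 8.81 and 8.97 CPM in SeS RA lungs. In both genes every O2 library was above every RA library, as in 19.7% of all genes, though for Dynlrb2 the lowest O2 and the highest RA library were equal at 3 digits, and the log2 fold changes were 0.41 for Tppp3 (edgeR adjusted p = 0.237) and 0.46 for Dynlrb2 (edgeR adjusted p = 0.324). The 4 club genes lay between -0.35 and 0.09.

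Averaged over both ages, with 6 libraries per gas, Dynlrb2 was higher in O2 than in RA on either diet. In SeS pups its log2 fold change was 0.57 (SE 0.157, edgeR adjusted p = 0.00915), and the call stood without any one of the 12 libraries. Ccdc39 was also called there (0.40, SE 0.125, edgeR adjusted p = 0.0188), but not without SeS O2 PN1 replicate 2, SeS RA PN1 replicate 2 or SeS RA PN1 replicate 3 (edgeR adjusted p up to 0.0633), and 26.1% of all genes were called (18.7% as higher and 7.42% as lower in O2). Scgb3a2 (0.61, edgeR adjusted p = 0.0575) and Rsph1 (0.37, edgeR adjusted p = 0.0618) passed without SeS RA PN1 replicate 1 or SeS RA PN3 replicate 3. In SeD pups, where 25.7% of all genes were called (16.5% as higher and 9.18% as lower), Dynlrb2 alone passed (0.47, SE 0.158, edgeR adjusted p = 0.0307). It was lost without SeD O2 PN1 replicate 3, SeD RA PN1 replicate 2, SeD O2 PN3 replicate 2, SeD RA PN3 replicate 2 or SeD RA PN3 replicate 3 (edgeR adjusted p up to 0.0945). Ccdc39 passed there without SeD O2 PN1 replicate 2, SeD O2 PN3 replicate 1 or SeD O2 PN3 replicate 3, Rsph1 without SeD O2 PN3 replicate 1 and Dnah5 without SeD RA PN1 replicate 1 (lowest edgeR adjusted p = 0.0312). Neither call of Dynlrb2 nor that of Ccdc39 stood when the library with conflicting oxygen labels was moved to SeS RA PN1, which left no airway gene called over both ages on either diet.

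**Figure D3:**
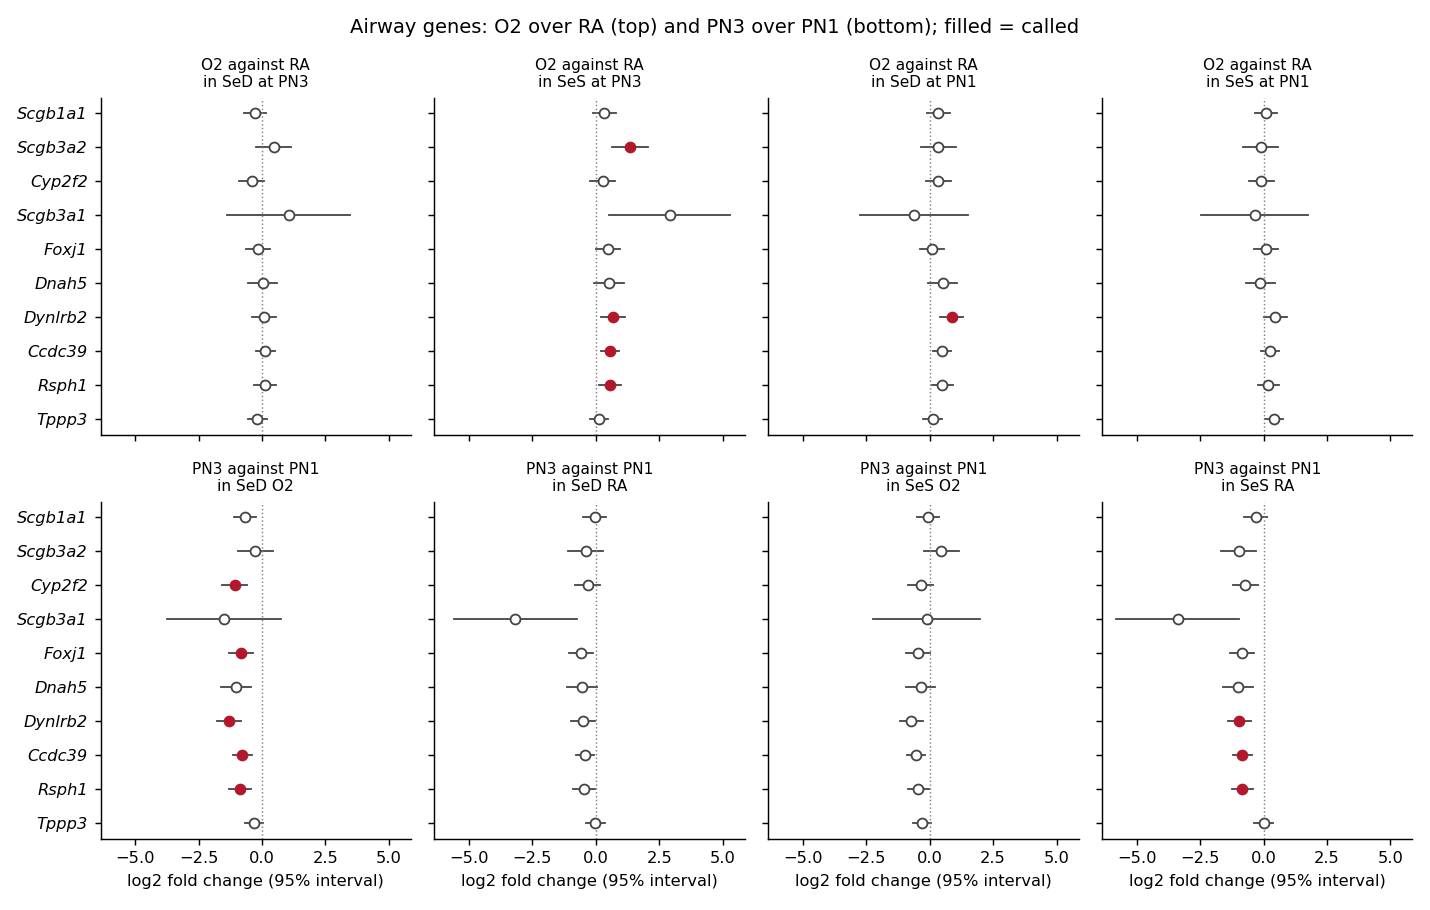
Log2 fold changes (x axis) of the 10 airway genes with 95% intervals, for O2 against RA (top row) and PN3 against PN1 (bottom row), with filled points for called genes. In SeS pups at PN3, 4 genes were called as higher in O2, and in SeD O2 lungs 5 were called as lower at PN3.

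The 2 abundant secretoglobins could also be set against each other within a library, which no scaling of libraries changes. This ratio was chosen after its values were seen and is given with no test. At PN3 the Scgb3a2 to Scgb1a1 ratio of counts was 0.335, 0.316 and 0.351 in SeD O2 lungs, against 0.191, 0.229 and 0.186 in SeD RA lungs. In SeS pups it was 0.331, 0.367 and 0.445 in O2 lungs, against 0.189, 0.191 and 0.186 in RA lungs. On both diets every O2 library was above every RA library, and SeD O2 replicate 1, low in both genes, was at 0.335 with the others. The mean difference on the log2 scale was 0.73 in SeD pups and 1.00 in SeS pups. At PN1 the groups overlapped, with means of 0.248 ± 0.0728 in SeD O2, 0.249 ± 0.0675 in SeD RA, 0.262 ± 0.0497 in SeS O2 and 0.295 ± 0.0716 in SeS RA (SD, n = 3 each).

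**Figure D4:**
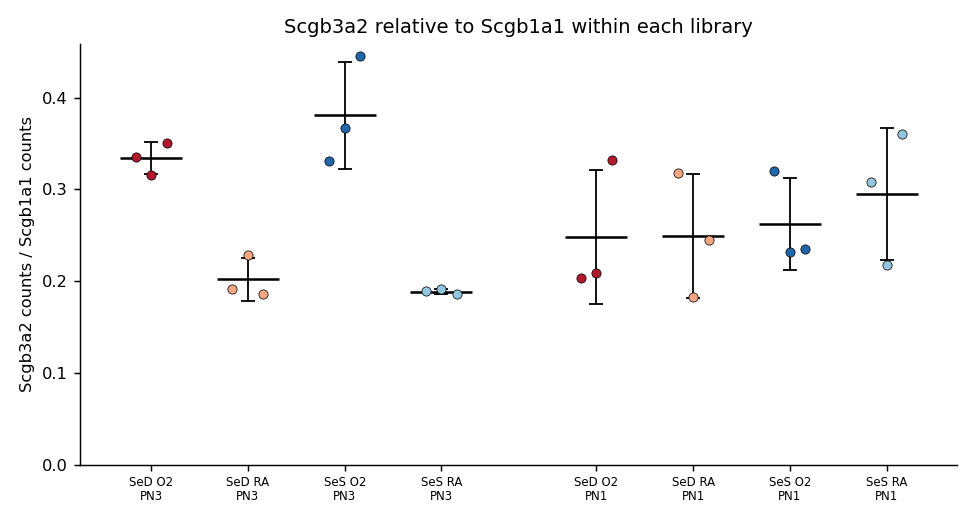
Ratio of Scgb3a2 to Scgb1a1 counts (y axis, from 0) in the 8 groups (x axis), with 1 point per library, a bar for the mean and error bars for the SD of 3 libraries. At PN3 the O2 libraries lay between 0.316 and 0.445 and the RA libraries between 0.186 and 0.229, while the groups overlapped at PN1.

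Other genes of the axoneme and of ciliated cells were examined in 4 lists of 83 tested genes in all. In SeS pups at PN3, 30 of them rose in O2 and 1 fell, with 80 of 83 log2 fold changes positive and a median of 0.54, against 0.042 over all genes. Of all genes 16.1% were called as higher in O2 there and 11.5% as lower. Among 38 other ciliated cell genes 17 rose, including Cfap43 (1.01, edgeR adjusted p = 0.00218), a gene of sperm and airway axonemes, the membrane protein gene Tmem212 (1.18, edgeR adjusted p = 0.00255) and Nme5 (0.80, edgeR adjusted p = 0.0127). Of 15 genes of the radial spoke, central pair and nexin-dynein complex 7 rose, among them Rsph14 (1.16), Spag17 (0.71), of the central pair, and Spef2 (0.61). Of 20 dynein arm genes 5 rose, with the inner arm heavy chains Dnah7a (1.02, edgeR adjusted p = 0.00625), Dnah7b (0.60) and Dnah12 (0.67) in front. Of 10 dynein assembly factors Dnaaf11 rose (0.93, edgeR adjusted p = 0.00329) and Dnaaf5 fell (-0.30, edgeR adjusted p = 0.0200). Dnah7a and Dnah7b are near-identical copies, so reads may be split between them.

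The count of 83 depended on single libraries. It was 5 as higher without SeS RA replicate 1, 9 without SeS O2 replicate 2, 14 without SeS RA replicate 2 and 16 without SeS O2 replicate 1, while the median stayed between 0.41 and 0.64. Of 10 regulators of ciliogenesis 3 rose and 1 fell, where 16.1% of all genes were called as higher and 11.5% as lower. Foxn4, a factor known from frog multiciliated cells, rose by 1.37 on the log2 scale (edgeR adjusted p = 0.0332) and Deup1, of the deuterosome that multiplies centrioles, by 0.84 (edgeR adjusted p = 0.0339). Rfx2, an RFX factor of ciliary genes that other cells also express, fell by 0.40 (edgeR adjusted p = 0.0283). Among 24 further club and secretory genes 7 rose, with Upk3a (1.24, edgeR adjusted p = 0.00165), a uroplakin found in a subset of club cells, Ces1d (0.64, edgeR adjusted p = 0.00336), a carboxylesterase, and Nupr1 (0.89, edgeR adjusted p = 0.00388) in front. In the full fit 29.2% of these 24 were called, all as higher, against 27.6% of all genes called and 16.1% called as higher. Without each library in turn 4 to 9 of these 24 rose. The median was 0.04 over 7 genes of alveolar type 1 cells and -0.04 over 9 genes of alveolar type 2 cells, 3 of these at an unadjusted p under 0.05. The type 2 genes summed to 18000, 18400 and 20700 CPM in SeS O2 lungs, against 12800, 13500 and 15700 CPM in SeS RA lungs. These did not overlap, and their part in the airway results was not tested.

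In SeD pups at PN3 the same 83 genes had a median log2 fold change of 0.05, with 48 of 83 positive. Dnai1, an outer arm intermediate chain, rose (1.26, edgeR adjusted p = 0.0293) and Gas8, of the nexin-dynein complex, fell (-0.33, edgeR adjusted p = 0.0468). Of all genes 23.7% were called as higher in O2 in this comparison. Without SeD O2 replicate 1 the median was 0.19, with 2 of the 83 called as higher and none as lower. Of all genes 24.7% were called in that setting. In the full fit 2 of the 10 regulators, Foxn4 (1.81, edgeR adjusted p = 0.00607) and Mcidas (0.91, edgeR adjusted p = 0.0249), a switch for the multiciliated fate, rose. Mcidas was at 1.29, 1.20 and 1.23 CPM in SeD O2 lungs, against 0.684, 0.699 and 0.585 CPM in SeD RA lungs, with no overlap. Of the 24 further club and secretory genes 11 rose and 1 fell. They were led by Gsta3 (2.09, edgeR adjusted p = 0.00417), Pigr (2.42, edgeR adjusted p = 0.00806) and Hp (2.31, edgeR adjusted p = 0.00840), a glutathione transferase, the polymeric immunoglobulin receptor and haptoglobin, all 3 of which the liver also makes. Gsta3 was at 166, 34.3 and 27.2 CPM in SeD O2 lungs, against 21.9, 14.3 and 17.2 CPM in SeD RA lungs, and Hp at 2320, 268 and 224 CPM, against 219, 170 and 178 CPM. In both genes all O2 libraries were higher, and replicate 1, the library with the most Alb, was far above the rest. Without SeD O2 replicate 1 alone, 3 of the 24 rose and none fell, where 24.7% of all genes were called in either direction. Without the 3 libraries with the most Alb, 5 of the 24 rose and none fell, where 23.1% of all genes were called. In SeD pups at PN1 3 of the 83 genes rose, with a median of 0.50 against 0.0056 over all genes, and 0 to 11 did when single libraries were left out. Of all genes 1.4% were called as higher in O2 there.

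**Figure D5:**
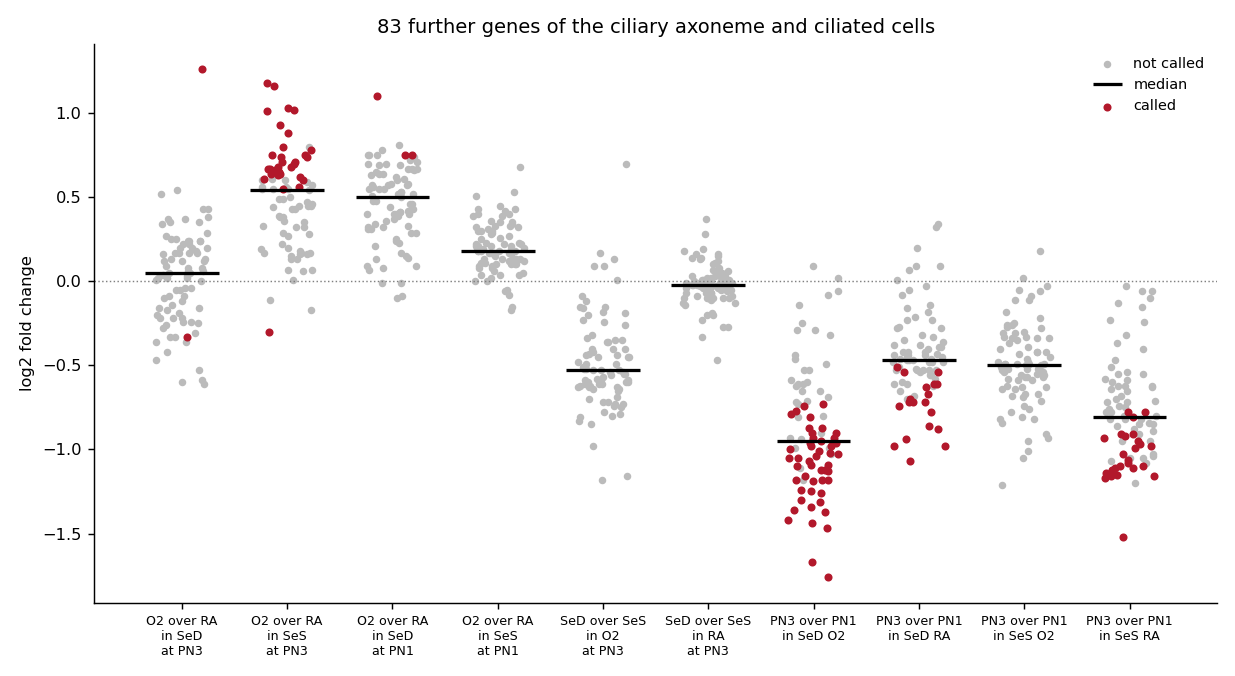
Log2 fold changes (y axis) of 83 further axonemal and ciliated cell genes in 10 comparisons (x axis), with 1 point per gene, black bars for the median and dark red points for called genes. The median was 0.54 for O2 over RA in SeS pups at PN3 and 0.05 in SeD pups (0.19 without SeD O2 replicate 1), and -0.95 to -0.47 for PN3 over PN1.

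With age, 3 airway genes fell in SeS RA lungs and 5 in SeD O2 lungs, with Dynlrb2, Ccdc39 and Rsph1 in both. The SeD O2, SeD RA, SeS O2 and SeS RA libraries of both ages also enter the comparisons of gas above, so the results of age and of gas are not independent. In SeS RA lungs 1.15% of all genes were called between the ages, 0.743% as higher and 0.403% as lower at PN3, and 3 of the 10 airway genes fell. Dynlrb2 was at 3.77, 4.98 and 6.47 CPM at PN3, against 11.8, 8.81 and 8.97 CPM at PN1. Ccdc39 was at 9.71, 9.30 and 10.2 CPM at PN3, against 22.3, 15.9 and 14.1 CPM at PN1. Rsph1 was at 11.7, 14 and 17.8 CPM at PN3, against 31.9, 21.6 and 24.3 CPM at PN1. No library at PN3 reached the lowest library at PN1 in any of the 3 genes. The log2 fold changes were -0.96 for Dynlrb2 (edgeR adjusted p = 0.0389), -0.84 for Ccdc39 (edgeR adjusted p = 0.0229) and -0.84 for Rsph1 (edgeR adjusted p = 0.0498). Foxj1 (-0.86, edgeR adjusted p = 0.0673) and Dnah5 (-1.02, edgeR adjusted p = 0.0809) had values of that size that did not pass, and Tppp3 was at -0.01 (95% interval -0.37 to 0.35). Scgb3a1 was at 0.200, 0.267 and 1.09 CPM at PN3, against 7.05, 0.228 and 9.57 CPM at PN1, which overlapped through 1 low library at PN1 (log2 fold change -3.39, 95% interval -5.81 to -0.97, edgeR adjusted p = 0.171). All 3 calls were lost without SeS RA PN1 replicate 1, SeS RA PN3 replicate 1 or SeS RA PN3 replicate 2, and those of Dynlrb2 and Rsph1 also without SeS RA PN1 replicate 3 (edgeR adjusted p up to 0.412). Foxj1 passed without SeS RA PN1 replicate 2 or SeS RA PN3 replicate 3, and Dnah5 without SeS RA PN1 replicate 2 (lowest edgeR adjusted p = 0.0394). Every PN3 library was below every PN1 library for 5 of the 10 genes and for 10.8% of all genes.

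In SeD O2 lungs 2.71% of all genes were called between the ages, 2.38% as lower at PN3, and 5 of the 10 airway genes fell. Cyp2f2 was at 273, 398 and 361 CPM at PN3, against 842, 659 and 684 CPM at PN1. Dynlrb2 was at 3.98, 5.62 and 5.90 CPM at PN3, against 12, 10.2 and 15.7 CPM at PN1. Foxj1 was at 17.1, 22.9 and 21.5 CPM at PN3, against 38.1, 31.2 and 40.9 CPM at PN1. The groups did not overlap in these genes, nor did they in 7 of the 10 genes, against 9.38% of all genes with every PN3 library below. The log2 fold changes were -1.08 for Cyp2f2 (edgeR adjusted p = 0.0195), -1.29 for Dynlrb2 (edgeR adjusted p = 0.00544), -0.84 for Foxj1 (edgeR adjusted p = 0.0494), -0.78 for Ccdc39 (edgeR adjusted p = 0.0218) and -0.86 for Rsph1 (edgeR adjusted p = 0.0285). Dynlrb2 was called without any one of the 6 libraries. Without SeD O2 PN3 replicate 1 it was the only one of the 10 (-1.14, edgeR adjusted p = 0.0164), with the other 9 log2 fold changes still negative. Cyp2f2, Foxj1, Ccdc39 and Rsph1 were also lost without SeD O2 PN1 replicate 1, Foxj1, Ccdc39 and Rsph1 without SeD O2 PN1 replicate 3, and Foxj1 without SeD O2 PN1 replicate 2 or SeD O2 PN3 replicate 3 (edgeR adjusted p up to 0.180). Dnah5 was called without SeD O2 PN3 replicate 2 (edgeR adjusted p = 0.0341) and Tppp3 without SeD O2 PN3 replicate 3 (edgeR adjusted p = 0.0376). Lists of other cell types had medians below 0 as well. The median log2 fold change was -0.57 over 9 alveolar type 2 genes (1 called as lower, 5 at an unadjusted p under 0.05) and -0.43 over 7 alveolar type 1 genes (none called, 4 at that p). It was -0.48 over 8 endothelial genes (2 called as lower, 6 at that p) and -0.50 over 7 smooth muscle genes (1 called as lower, 4 at that p). The part of these lists in the result was not tested.

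In SeS O2 lungs, where 0.185% of all genes were called (0.0797% as higher at PN3), no airway gene was called by edgeR or DESeq2, 2 were by limma's voom and 4 had an unadjusted p under 0.05. Limma's voom called 1440 genes in all in this comparison. Scgb3a2 was the one gene with a positive log2 fold change there, at 953, 1090 and 1020 CPM at PN3 against 890, 699 and 657 CPM at PN1. These did not overlap, but the log2 fold change of 0.45 had a 95% interval of -0.24 to 1.14. In SeD RA lungs 21.8% of all genes were called, but no airway gene by edgeR, with 5 at an unadjusted p under 0.05, 5 called by DESeq2 and 8 by limma's voom. Over all genes voom called 9548 there, and edgeR 5203, or 805 to 7542 with single libraries left out. All 10 log2 fold changes were negative, with a median of -0.45. Foxj1 passed without SeD RA PN1 replicate 3 or SeD RA PN3 replicate 1 and Ccdc39 without SeD RA PN3 replicate 1 (lowest edgeR adjusted p = 0.0222). The receptor genes summed to 27.5, 21.9 and 33.8 CPM of the library total in SeD RA lungs at PN3. At PN1 they summed to 321, 843 and 29 CPM, and their part in this result was not tested. Tppp3 had the narrowest span over the 4 groups, at log2 fold changes of -0.31 to -0.01.

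Of the 83 further ciliated genes 48 fell with age in SeD O2 lungs, where 2.38% of all genes were called as lower at PN3, 19 in SeD RA lungs, where 16.5% were, and 25 in SeS RA lungs, where 0.403% were. The medians were -0.95 in SeD O2, -0.47 in SeD RA and -0.81 in SeS RA. In SeS O2 lungs none was called by edgeR, with 45 at an unadjusted p under 0.05, 2 called by DESeq2 and 27 by limma's voom, and a median of -0.50. Over all genes voom called 1440 there. In SeD O2 the lists were led by Ccdc153 (-1.76, edgeR adjusted p = 0.00192), the inner arm light chain Dnali1 (-1.47, edgeR adjusted p = 0.00326) and Drc3 (-1.30, edgeR adjusted p = 0.00826). Ccdc153 was at 2.62, 3.60 and 5.53 CPM in SeD O2 lungs at PN3, against 12, 10.4 and 17.4 CPM at PN1, with no overlap. In SeS RA the count was 0 without SeS RA PN1 replicate 1, 2 without SeS RA PN3 replicate 2, 4 without SeS RA PN1 replicate 3, 5 without SeS RA PN3 replicate 1, and 32 and 31 without SeS RA PN1 replicate 2 and SeS RA PN3 replicate 3. In SeD O2 it was 15 without SeD O2 PN1 replicate 1, 16 without SeD O2 PN3 replicate 1 and 29 without SeD O2 PN1 replicate 3, and in SeD RA it was 2 to 28.

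Diet was compared within each gas. At PN3 in O2, no airway gene was called between SeD and SeS by edgeR or limma's voom, 3 were by DESeq2, and 7 had an unadjusted p under 0.05, while 0.143% of all genes were called by edgeR (0.0923% as lower in SeD). DESeq2 called 1671 genes in all there. The share of all genes at an unadjusted p under 0.05 is not given, so the 7 have no background here. All 10 log2 fold changes were negative, from -1.97 for Scgb3a1 to -0.36 for Tppp3, with a median of -0.62, against 0.023 over all genes. Scgb1a1 was at 1120, 1950 and 1960 CPM in SeD O2 lungs, against 2880, 2970 and 2300 CPM in SeS O2 lungs. Scgb3a2 was at 376, 616 and 687 CPM in SeD O2 lungs, against 953, 1090 and 1020 CPM in SeS O2 lungs. Every SeD library was below every SeS library in both, as it was for 7 of the 10 genes and for 7.28% of all genes. The log2 fold change was -0.70 for Scgb1a1 (SE 0.215, edgeR adjusted p = 0.0935) and -0.87 for Scgb3a2 (SE 0.333, edgeR adjusted p = 0.184). Among the ciliated genes it was -0.66 for Dynlrb2 (edgeR adjusted p = 0.123) and -0.58 for Foxj1 (edgeR adjusted p = 0.193).

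Without SeD O2 replicate 1 the 10 log2 fold changes were all still negative, but the median was -0.47, 2 had an unadjusted p under 0.05 and Tppp3 was at -0.11. Leaving out SeD O2 replicate 2 brought Scgb1a1, Ccdc39 and Rsph1 past the threshold, and leaving out SeD O2 replicate 3 brought Scgb1a1 and Tppp3 (lowest edgeR adjusted p = 0.0218). Of the 83 further genes 77 had negative log2 fold changes, with a median of -0.53 (-0.42 without SeD O2 replicate 1) and 46 at an unadjusted p under 0.05. None was called by edgeR or limma's voom, against 13 by DESeq2, which called 1671 of all genes, and up to 17 by edgeR with single libraries left out. The Y-linked gene Ddx3y was at 0 CPM in all 3 SeD O2 libraries, against 150, 0 and 172 CPM in SeS O2 libraries. Liver genes summed to 56.5 to 79600 CPM in SeD O2 lungs, against 4.29 to 60.4 CPM in SeS O2 lungs, with all 10 log2 fold changes above 0 and at an unadjusted p under 0.05 but none called. Endothelial genes summed to 1610 to 2570 CPM in SeD O2 lungs, against 2310 to 3000 CPM in SeS O2 lungs, and all 8 log2 fold changes were negative, with a median of -0.44, 6 at an unadjusted p under 0.05 and 1 called. The part of sex, liver and endothelial transcripts in this comparison was not tested.

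In RA at PN3, where 0.0126% of all genes were called, no airway gene was called by edgeR, DESeq2 or limma's voom, none had an unadjusted p under 0.05, and the log2 fold changes lay between -0.11 and 0.05. The 95% intervals of the 9 genes other than Scgb3a1 lay within -0.68 and 0.70, so differences of that size are not excluded. At PN1 no airway gene was called by any of these tools in either gas. In RA 14.6% of all genes were called, and the 10 airway genes had negative log2 fold changes with a median of -0.40 (1.3% of all genes were called as lower in SeD), 3 of them at an unadjusted p under 0.05. Without SeD RA PN1 replicate 1, Dnah5 (-1.01, edgeR adjusted p = 0.0161) and Rsph1 (-0.67, edgeR adjusted p = 0.0467) were called as lower in SeD. Over all genes edgeR called 3483 in the full fit, and 1 to 5763 with single libraries left out. The receptor genes summed to 321, 843 and 29 CPM of the library total in SeD RA lungs at PN1. In SeS RA lungs they summed to 28.1, 32.5 and 25.9 CPM, and their part in this comparison was not tested. In O2 at PN1 0.0126% of all genes were called, and the airway genes lay between -0.60 and 0.09, none at an unadjusted p under 0.05.

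Over both ages in O2, 0.155% of all genes were called (0.0755% as higher and 0.0797% as lower in SeD). No airway gene was called by edgeR or limma's voom, 1 was by DESeq2, and 7 had an unadjusted p under 0.05. DESeq2 called 974 genes in all there. All 10 log2 fold changes were negative, from -1.29 for Scgb3a1 to -0.24 for Dnah5, and Tppp3 (-0.36, edgeR adjusted p = 0.160) passed without SeD O2 PN3 replicate 3 (edgeR adjusted p = 0.0130). Over both ages in RA, none of the 10 was called by the 3 tools or had an unadjusted p under 0.05, and the log2 fold changes lay between -0.31 and -0.06.

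Whether the response to O2 differed between the diets was tested as an interaction. At PN3 the response in SeD minus that in SeS pups was negative for all 10 airway genes, from -1.86 for Scgb3a1 to -0.29 for Tppp3 on the log2 scale with a median of -0.61, but none passed by edgeR, DESeq2 or limma's voom. The lowest edgeR adjusted p was 0.621, none had an unadjusted p under 0.05, and edgeR called no gene at all (0% of 23831), against 271 by DESeq2 and none by limma's voom. The 95% interval was -1.86 to 0.10 for Scgb3a2 and -1.25 to 0.06 for Dynlrb2. Without SeD O2 PN3 replicate 1 the median was -0.43. The 4 calls in SeS and the lack of calls in SeD pups at PN3 thus do not show that the diets differ. At PN1 the interaction was positive for 8 of 10 genes with a median of 0.29, and again none was called by any of the 3 tools or had an unadjusted p under 0.05. Over both ages 0.0042% of all genes were called, and of the 10 genes none by any tool.

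Across the 24 libraries the airway genes varied together. Pearson's r of log2 CPM lay between 0.854 and 0.959 over the 10 pairs of Foxj1, Dnah5, Dynlrb2, Ccdc39 and Rsph1, and between 0.577 and 0.899 for deviations from the group means. Tppp3 was less like these 5, at 0.536 to 0.627. Of the club genes, Cyp2f2 was at 0.820 to 0.938 with the 5 ciliated genes, Scgb1a1 at 0.742 to 0.854 and Scgb3a2 at 0.624 to 0.751. All genes were read in the same 24 libraries with the same scaling, and these values describe the set and carry no test. The genes whose levels were most like the mean of the 6 ciliated genes, among 15901 genes, were Cfap206 (r = 0.980), Drc3 (0.975), Cfap91, Stk33 and Ccdc113 (0.970 each), Ppp1r36 (0.969), 1700016K19Rik (0.968) and Tekt4 (0.967). For the mean of the 4 club genes they were 8430429K09Rik (0.866), Ak8 (0.864), Pifo (0.857), Ccdc113 (0.856), Cxcl17 (0.850), Fgfbp1 (0.843), Gabrp (0.840) and Drc3 (0.840), over the same 24 libraries. The club mean was not scaled by gene, so Scgb3a1, of low counts and a 51.8-fold range between libraries, weighs most in it.

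Some exons of these genes lie opposite others. Ccdc39 shares 2862 exon bases with Ttc14 on the other strand, a gene with 55343 counts over all libraries against 11323 for Ccdc39, and Rsph1 shares 149 with Slc37a1. Cyp2f2 and Tppp3 share 274 and 527 exon bases with antisense transcripts. The strand setting of the counting is not given in the sources used here, so reads from such partners cannot be told apart.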

How the data were processed

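RNA from lungs perfused with PBS was made into stranded poly(A) libraries and sequenced. The authors trimmed the reads with Trimmomatic after FastQC, aligned them to GRCm39 with HISAT2 and counted them per gene with featureCounts. The deposited values used here are these raw counts for 57010 genes in 24 libraries. The strand setting and the annotation release are not given in the sources used here. The authors' own tables of fold changes and p-values from DESeq2, and their normalized values, were not used.

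Counts were filtered with filterByExpr (minimum count 10, minimum total 15), normalised by TMM, and a model of 8 group means over all 24 libraries was fitted with edgeR 4.0.16 under R 4.3.3, using glmQLFit (robust) and glmQLFTest. The common biological coefficient of variation was 0.263. The 19 comparisons were O2 against RA, SeD against SeS and their interaction, at each age and over both, and PN3 against PN1 in each group. P-values were adjusted over 23831 genes (Benjamini-Hochberg), with calls made below 0.05 and beyond a log2 fold change of 0.25 in either direction. The share of all genes at an unadjusted p under 0.05 is not given, so counts at that level stand without a background. The 95% intervals come from the moderated degrees of freedom and cover the spread between libraries. Exon lengths and positions are of GENCODE on GRCm39, and 700 identifiers were not in it. CPM of Alb, Ddx3y and the receptor genes are per library total without TMM.

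Groups were taken from the titles. The rule named all 10 genes in every comparison described, and those not given singly are covered by a range and counts. From each further list the 3 genes with the smallest unadjusted p are named, and for likeness the 8 genes with the highest r (log2 CPM with a prior count of 2, mean of at least 1 CPM, the 10 genes left out). The ratio of secretoglobins, Alb, Ddx3y and the receptor genes were given for their values. The 10 genes, the lists and the tests were chosen with earlier results of these data known. The alternatives were RLE size factors, DESeq2 1.42.0, voomWithQualityWeights of limma 3.58.1, no filter, no fold threshold, a replicate block, only the groups compared, the library with conflicting labels moved, and each library left out. Chosen after seeing the data were edgeR without robust dispersions, dropping the 3 Alb-richest libraries, and the ratio. The code was tested on simulated counts. Tables and figures were made in Python 3.11.15 with NumPy 2.4.6, SciPy 1.17.1 and matplotlib 3.10.9.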

Additional observations from a re-analysis of the deposited data

How the results depend on the processing

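None of the 10 genes reversed a called direction in any of the 19 comparisons under any alternative. Over the alternatives other than leaving out each library in turn 1800 of the single-gene results stayed on their side of the threshold, 62 gained a call and 38 lost one, and with single libraries left out 1604 stayed, 26 gained and 50 lost one. Without the 3 Alb-richest libraries, 2 remained in SeD O2 PN3 and 1 in SeD O2 PN1, namely replicate 3 with the squamous transcripts, which was then assumed to vary like the other groups, so under that setting the counts for O2 against RA in SeD at PN1 and over both ages and for PN3 against PN1 in SeD O2 rest on that library. The number of the 10 genes called moved as follows. For O2 against RA in SeS at PN3 (4 called) it was 3 to 5 under every alternative and 1 to 3 with a library left out. For O2 against RA in SeD at PN1 (1 called) it was 0 with a replicate block, with only the groups compared, with the library whose oxygen labels conflict placed in SeS RA PN1 (the library moved) and without robust dispersions, 2 without the 3 libraries with the most Alb, and 0 to 1 with a library left out. In SeS at PN1 (0 called) limma's voom called 2 and the fit of only the groups compared 1. Over both ages in SeS (2 called) it was 4 with RLE size factors, DESeq2 or only the groups compared, 5 with limma's voom or without the 3 Alb-rich libraries, 0 with the library moved, 3 with the replicate block, and 1 to 4 with a library left out. Over both ages in SeD (1 called) it was 0 with no filter, only the groups compared or the library moved, 4 without the 3 Alb-rich libraries, and 0 to 3 with a library left out. In SeD at PN3 (0 called) it was 0 to 1 with a library left out. For SeD against SeS in O2 (0 called) DESeq2 called 3 at PN3 and 1 over both ages, and a library left out gave 0 to 3 and 0 to 1. In RA at PN1 (0 called) it was 0 to 2 with a library left out. For PN3 against PN1 in SeS RA (3 called) it was 8 with DESeq2, 7 with limma's voom, 5 with the library moved, 0 with only the groups compared, 2 with the block, and 0 to 5 with a library left out. In SeS O2 (0 called) it was 2 with limma's voom and 3 with only the groups compared. In SeD RA (0 called) it was 2 with RLE size factors, 5 with DESeq2, 8 with limma's voom, 1 without robust dispersions, and 0 to 2 with a library left out. In SeD O2 (5 called) it was 2 with limma's voom or no filter, 0 with only the groups compared, 1 without the 3 Alb-rich libraries, and 1 to 6 with a library left out. Apart from settings that leave libraries out, the cause was not tested.

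The replicate numbers were checked for pairing over the 2000 most variable genes. Libraries of the same number had a mean r of 0.0135 at PN1 and -0.0517 at PN3, and 4 of 12 libraries at each age were most like their own number, so the numbers were not taken as pairs. The replicate block left the count of the 10 genes within 1 of the main value in every comparison. Counts over all genes moved more. For O2 against RA, edgeR called 14 genes in SeS at PN1 (0 with the library moved, 3313 with limma's voom), 596 in SeD at PN1 (80 with only the groups compared, 3592 with voom), 6576 in SeS at PN3 (5902 with the library moved, 9966 with voom), 8561 in SeD at PN3 (3107 with only the groups compared, 9880 with DESeq2), 6217 in SeS over both ages (3534 with the library moved, 8269 with voom) and 6127 in SeD (2522 with only the groups compared, 7751 with voom). For SeD against SeS it called 3483 in RA at PN1 (2 with the library moved, 5921 with voom), 3 in O2 at PN1 (up to 397, with voom), 3 in RA at PN3 (up to 6, with voom), 34 in O2 at PN3 (2 with only the groups compared, 1671 with DESeq2), and 3 in RA and 37 in O2 over both ages (up to 1414, with voom, and 974, with DESeq2). The interaction was called for 0 genes at PN1, 0 at PN3 and 1 over both ages (up to 3260 with voom, 271 and 288 with DESeq2). For PN3 against PN1 the counts were 273 in SeS RA (191 to 2063), 44 in SeS O2 (14 to 1440), 5203 in SeD RA (329 to 9548) and 647 in SeD O2 (0 to 1615). Of the 8 genes most like the ciliated genes 5, and of those most like the club genes 6, were named again without the library with the most Alb. Scgb3a1, at 6 to 336 raw counts, is the gene most limited by depth.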

Other observations

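Genes of other airway cell types were read from lists as well. Muc5ac, the gel-forming mucin of goblet cells, was at 0.537, 1.31 and 1.36 CPM in SeS O2 lungs at PN3, against 2.10, 3.32 and 2.42 CPM in SeS RA lungs. These did not overlap, and its log2 fold change of -1.28 was called (edgeR adjusted p = 0.0326), while 4 of the 6 goblet and serous genes tested were above 0, with a median of 0.52. Of 7 basal cell genes 1 was called as higher in SeS pups at PN3, where 16.1% of all genes were, and 3 in SeD pups, where 23.7% were. In SeD lungs at PN3 the 3 genes of smallest p in the goblet and serous list were Gp2, Foxa3 and Ltf, all called as higher in O2. Foxa3, a forkhead factor that the liver also expresses, was at 32.9, 0.661 and 0.492 CPM in SeD O2 lungs, against 0.712, 0.242 and 0.400 CPM in SeD RA lungs, so that its mean rests on replicate 1, the library with the most Alb.

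Grp, the gastrin-releasing peptide of neuroendocrine cells, was at 1.22, 1.98 and 2.98 CPM in SeD O2 lungs at PN3, against 4.30, 3.07 and 3.20 CPM in SeD RA lungs. The groups did not overlap, and Grp fell (log2 fold change -0.77, edgeR adjusted p = 0.0108). It also fell with age in SeD O2 lungs, at 1.22, 1.98 and 2.98 CPM at PN3 against 6.49, 7.51 and 7.64 CPM at PN1 (-1.80, edgeR adjusted p = 0.000538). Of 7 smooth muscle genes 4 fell in O2 at PN3 in SeD pups and 3 in SeS pups. Whole lung RNA does not tell whether these transcripts came from airway muscle or from other cells. The stem cell receptor gene Lgr6, which marks a subset of airway smooth muscle, was at -1.24 (edgeR adjusted p = 0.00153) in SeD and -1.13 (edgeR adjusted p = 0.00422) in SeS. The background was 12.2% of all genes called as lower in SeD and 11.5% in SeS.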
